A study of Sus scrofa with 9 samples.

Results

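Epithelial cells hold on to the basement membrane through integrins, receptors built from an alpha and a beta chain, and through hemidesmosomes, the rivet-like plaques that tie keratin filaments to that membrane. Data are given here for 8 pig genes of this anchorage, measured by 11 of the 27558 probe sets of the array. They are the integrin chains ITGA2, ITGA3, ITGB1, ITGB4 and ITGB6, the laminin chains LAMA3 and LAMB3, and COL17A1. The genes were chosen by name, as every probe set for which 1 of these was the only annotated gene symbol. ITGA2 was measured by 3 probe sets, ITGA3 by 2 and each other gene by 1.

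As background, laminin-332 is the anchoring laminin of stratified and glandular epithelium, and LAMA3 and LAMB3 encode chains of it. The integrin of ITGA6 and ITGB4 binds it at hemidesmosomes, where COL17A1 is a transmembrane collagen, and the integrin of ITGA3 and ITGB1 binds it outside them. ITGA2 pairs with ITGB1 as a receptor of collagen and laminin. ITGB6 pairs with ITGAV, binds fibronectin, tenascin and latent TGF-beta, and is neither a laminin receptor nor a hemidesmosome gene. Their partners ITGA6, PLEC, DST and KRT14 had no probe set annotated to them alone and are not analysed here.

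Each of 9 samples of total RNA was read on its own Affymetrix PorGene 1.0 ST array. Spheroids grown in vitro from esophageal submucosal glands (ESMG, the mucus-secreting glands beneath the esophageal lining) came from pigs 1, 2 and 3, and were cultured in growth factor reduced Matrigel, a basement membrane extract, under Advanced DMEM/F12 with B27, N2, 10 mM HEPES and 50 ng/ml of recombinant human EGF. ESMG tissue came from control pigs 37, 39 and 40, and the overlying squamous tissue from the same 3 pigs. Culture and RNA kit both differ between spheroids and tissues, so these cannot be told apart, and how pigs 1, 2 and 3 relate to the tissue pigs is unknown here.

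Levels are log2 RMA values, in which a difference of 1 is a 2-fold difference, and with 3 arrays per group their number limits the precision. The array medians lay between 6.84 and 7.04. A probe set was called at a limma adjusted p under 0.05 (Benjamini-Hochberg over all 27558 probe sets) and a fold of at least 2. ESMG of pig 40 stood apart from the other 2 ESMG arrays, at 5.22 on the second principal component against 48.9 and 49.2 for pigs 37 and 39, with the squamous arrays between -49.7 and -24.1. All 8 genes were still called against ESMG without that array. The 10 measured gland markers were all called higher in ESMG than in squamous tissue. None of 5 measured squamous markers was called between them, and their mean log2 level was 11.19 to 11.90 in ESMG and 12.03 to 12.26 in squamous tissue.

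All 8 genes were higher in spheroids than in ESMG, by 2.08-fold for ITGB1 to 8.26-fold for ITGA3, and 7 of the 8 were higher than in squamous tissue. Over all 12217 genes, with 1 probe set per gene, 7.99% were called higher in spheroids than in ESMG and 8.58% higher than in squamous tissue. None of the 8 was called lower, against 8.87% and 8.02% of all genes. The median log2 difference of the 8 genes was 1.89 against ESMG and 1.67 against squamous tissue, beside 0.085 and 0.033 over all genes. Spheroid arrays did not overlap either tissue for any of the 8, as was true of 51.3% of all genes against ESMG and 50.4% against squamous tissue. The spheroid arrays are shared by both comparisons, so these are not independent of each other. In bulk RNA, fewer cells of a type and less RNA per cell cannot be told apart.

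**Figure D1:**
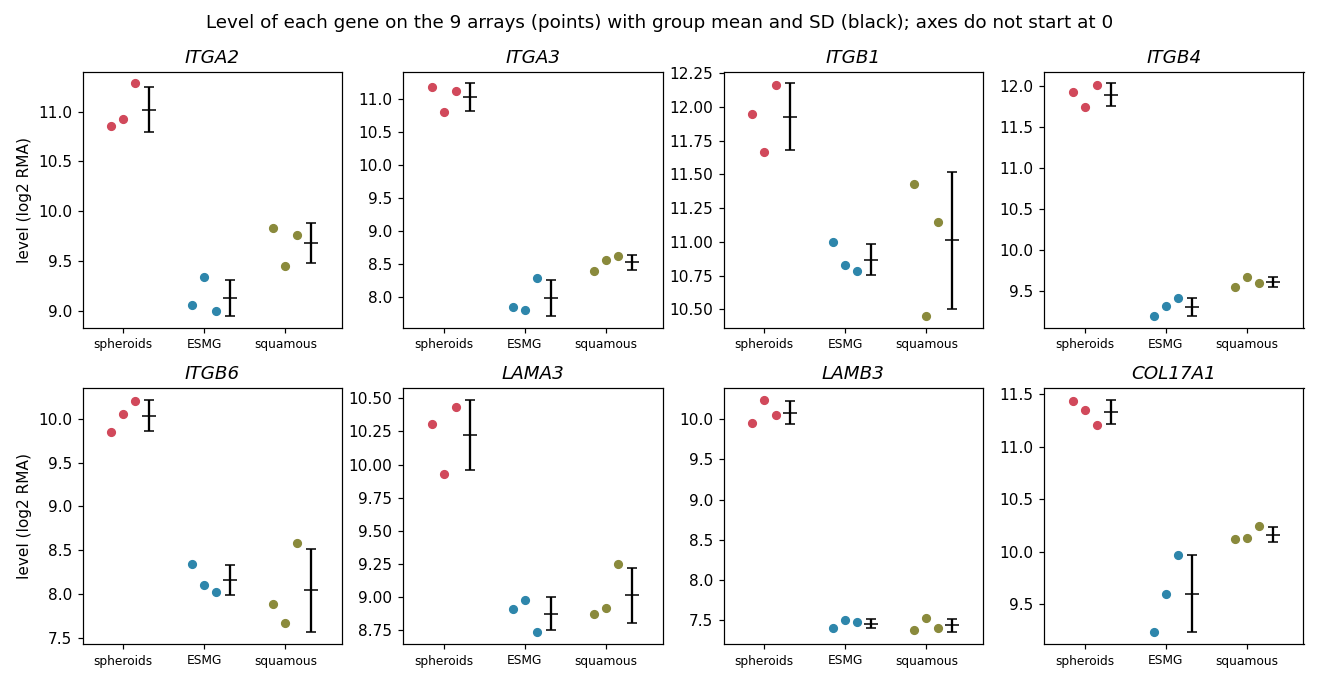
Level (log2 RMA, axes not starting at 0) of the 8 genes on the 9 arrays, with spheroids, ESMG and squamous tissue from left to right; points are arrays in order of pig number and black bars the group mean and SD (n = 3). For every gene all 3 spheroid points lie above all 6 tissue points, with ITGB1 and LAMA3 the closest to the tissues.

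Among the laminin-binding receptors, ITGA3 had the largest difference from ESMG. It measured 11.18, 10.80 and 11.12 in spheroids of pigs 1, 2 and 3, 7.86, 7.80 and 8.29 in ESMG of pigs 37, 39 and 40, and 8.40, 8.56 and 8.63 in squamous tissue of the same pigs. The spheroid arrays lay more than 2 units above every tissue array. The log2 difference was 3.05 from ESMG (SE 0.17, limma adjusted p = 5.57e-07) and 2.50 from squamous tissue (SE 0.17, adjusted p = 1.90e-06). The second ITGA3 probe set gave 3.45 and 2.78 for the same comparisons. Ordered by log2 difference from ESMG, ITGA3 stood in place 26 of 12217 genes.

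ITGB4, the beta chain of the hemidesmosomal integrin, was nearly as far from the tissues and varied little within groups. Its levels were 11.93, 11.75 and 12.01 in spheroids, 9.19, 9.31 and 9.41 in ESMG and 9.55, 9.67 and 9.60 in squamous tissue. The lowest spheroid array was above the highest tissue array by over 4-fold. The mean was 11.90 ± 0.14 for spheroids and 9.31 ± 0.11 for ESMG (SD, n = 3 each), a 6.03-fold difference (log2 2.59, SE 0.13, limma adjusted p = 3.17e-07). Against squamous tissue, at 9.61 ± 0.061, the difference was 4.89-fold (log2 2.29, adjusted p = 6.33e-07).

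ITGA2 was represented by its probe set of highest mean, which read 10.86, 10.92 and 11.28 in spheroids, 9.06, 9.34 and 8.99 in ESMG and 9.83, 9.45 and 9.76 in squamous tissue. These gave folds of 3.72 from ESMG (log2 1.89, SE 0.17, limma adjusted p = 1.34e-05) and 2.53 from squamous tissue (log2 1.34, adjusted p = 0.000125). The other 2 probe sets were called the same way, at 2.11 and 2.87 on the log2 scale from ESMG and at 1.50 and 2.22 from squamous tissue. So the size of the ITGA2 difference depended on the probe set by up to about 1 unit.

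ITGB1, the common partner of ITGA2 and ITGA3, moved least. It was at 11.95, 11.67 and 12.16 in spheroids, 11.00, 10.82 and 10.78 in ESMG and 11.43, 10.45 and 11.15 in squamous tissue. The squamous arrays spread over nearly 1 unit, and that of pig 37 lay only 0.24 under the lowest spheroid array. ITGB1 was 2.08-fold higher in spheroids than in ESMG (log2 1.06, SE 0.23, limma adjusted p = 0.00437). It was 1.89-fold higher than in squamous tissue (log2 0.92, 95% interval 0.41 to 1.43, adjusted p = 0.00991), under the fold minimum. Its call from ESMG ended without the spheroid array of pig 3 (log2 0.94), after quantile normalization (1.00) and after cyclic loess (0.92). Its difference from squamous tissue passed the minimum without the squamous array of pig 37 (1.13), without the spheroid array of pig 2 (1.05) and with equal array medians (1.05).

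The changes of partner chains were set side by side as ratios. The log2 ratio of ITGA3 to ITGB1 within an array was -0.90 ± 0.13 (SD) for the 3 spheroid arrays and -2.88 ± 0.35 for the 3 ESMG arrays, a difference of 1.99. The ratio of ITGA2 to ITGB1 was -0.90 ± 0.18 for spheroids and -1.74 ± 0.23 for ESMG, a difference of 0.84. Both had an exact two-sided permutation p of 0.1, the smallest that 3 arrays against 3 allow. Against squamous tissue the ratio differed by 1.59 for ITGA3 (exact p = 0.1) and by 0.43 for ITGA2 (exact p = 0.2). Only the change of such a ratio is read here, because signals of different probe sets are not on a common scale.

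ITGB6 measured 9.85, 10.05 and 10.21 in spheroids, 8.35, 8.10 and 8.03 in ESMG and 7.88, 7.67 and 8.58 in squamous tissue. The squamous arrays of this gene were the most scattered apart from those of ITGB1, with an SD of 0.48. Spheroids were 3.67-fold above ESMG (log2 1.88, SE 0.22, limma adjusted p = 8.27e-05) and 3.98-fold above squamous tissue (log2 1.99, adjusted p = 5.22e-05). Its partner ITGAV had means of 10.92 ± 0.19 for spheroids, 10.23 ± 0.17 for ESMG and 9.95 ± 0.27 for squamous arrays (SD, n = 3 each). That was 0.68 above ESMG and 0.96 above squamous tissue on the log2 scale, both under the fold minimum; a second ITGAV probe set was called against squamous tissue, at 1.04.

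Of the laminin chains, LAMB3 had the tightest tissue values of the 8 genes. It read 9.96, 10.24 and 10.05 in spheroids, 7.40, 7.50 and 7.47 in ESMG and 7.37, 7.53 and 7.40 in squamous tissue. The 6 tissue arrays thus spanned 0.16 and the spheroids lay over 2 units higher. The difference was 6.18-fold from ESMG (log2 2.63, SE 0.13, limma adjusted p = 2.71e-07) and 6.28-fold from squamous tissue (log2 2.65, adjusted p = 1.93e-07). Among all genes ordered by log2 difference LAMB3 held place 47 from ESMG and 75 from squamous tissue.

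LAMA3 had smaller log2 differences than LAMB3. Its levels were 10.31, 9.93 and 10.44 in spheroids, 8.91, 8.98 and 8.74 in ESMG and 8.87, 8.92 and 9.25 in squamous tissue. Spheroids were 2.55-fold above ESMG (log2 1.35, SE 0.17, limma adjusted p = 0.000129) and 2.31-fold above squamous tissue (log2 1.21, adjusted p = 0.000255). The log2 ratio of LAMB3 to LAMA3 within an array was -0.35, 0.31 and -0.39 in spheroids, against -1.51, -1.48 and -1.26 in ESMG and -1.50, -1.39 and -1.85 in squamous tissue. The spheroid mean of that ratio was 1.28 above ESMG and 1.44 above squamous tissue, each with an exact two-sided permutation p of 0.1.

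COL17A1 was at 11.44, 11.35 and 11.21 in spheroids, 9.23, 9.60 and 9.96 in ESMG and 10.12, 10.13 and 10.24 in squamous tissue. ESMG arrays were the most spread, with that of pig 40 nearest the squamous level. Spheroids were 3.33-fold above ESMG (log2 1.74, SE 0.18, limma adjusted p = 3.50e-05) and 2.25-fold above squamous tissue (log2 1.17, adjusted p = 0.000451). The log2 differences of COL17A1 were under those of ITGB4, its neighbour in the hemidesmosome, and the log2 ratio of COL17A1 to ITGB4 was lower in spheroids by 0.86 than in ESMG and by 1.12 than in squamous tissue (exact two-sided permutation p = 0.1 for both).

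**Figure D2:**
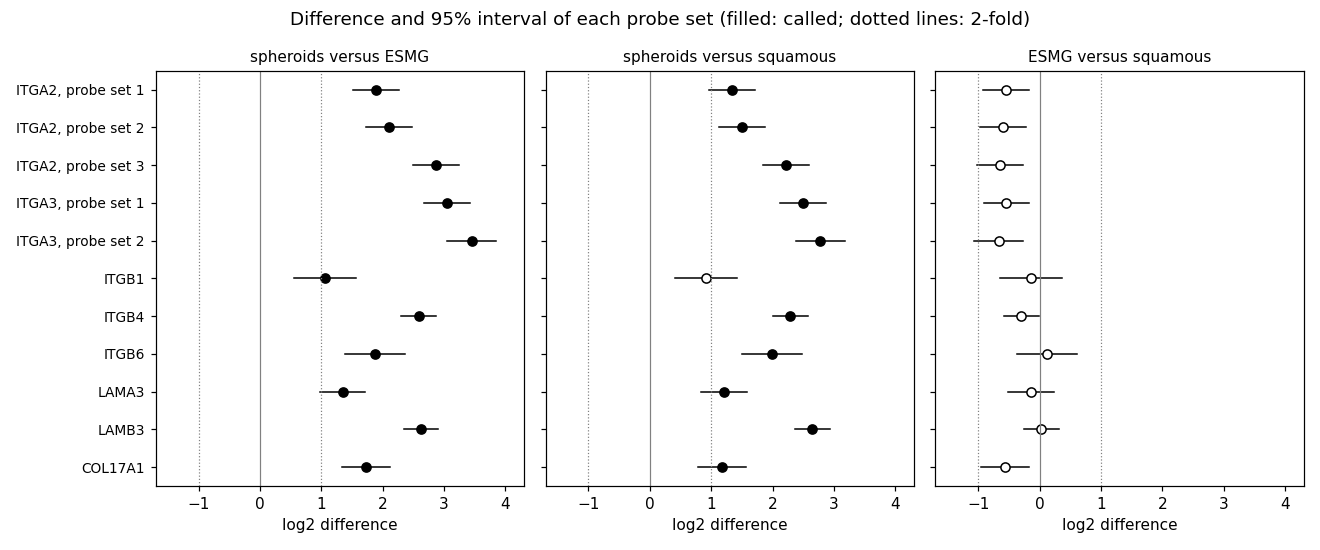
Log2 difference (x axis) of each of the 11 probe sets (rows) with its 95% interval, for spheroids versus ESMG, spheroids versus squamous tissue and ESMG versus squamous tissue; filled points were called and dotted lines mark 2-fold. Against ESMG the differences run from 1.06 for ITGB1 to 3.45 for a probe set of ITGA3, and between the tissues none was called.

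The comparison of ESMG with squamous tissue asked whether these bulk tissues differ in these genes. None of the 8 was called, where 2.49% of all genes were called higher in ESMG and 0.36% lower. Limma adjusted p-values of the 11 probe sets ran from 0.0646 to 0.956, and at an unadjusted p under 0.05, 7 probe sets of 4 genes passed, where 18.1% of all genes did. Those genes were ITGA2, ITGA3, ITGB4 and COL17A1. Their ESMG and squamous arrays did not overlap, as for 21.6% of all genes in either direction. ESMG was the lower, so being lower within all 3 pigs follows from this and is no further support. The 95% intervals of all 11 probe sets lay between -1.07 and 0.60 on the log2 scale. All 10 measured gland markers were called between these tissues, but none of the 5 measured squamous markers was. So a missing call here does not show that gland and lining cells are alike.

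Within pigs, COL17A1 in ESMG minus squamous tissue was -0.89, -0.53 and -0.28 in pigs 37, 39 and 40. ITGA3 gave -0.55, -0.75 and -0.33, and ITGB4 gave -0.36, -0.36 and -0.18. ITGA2 was at -0.77, -0.12 and -0.77. The other 4 genes had mixed signs over the pigs: ITGB6 was 0.46, 0.44 and -0.55, and ITGB1 -0.43, 0.37 and -0.37. LAMB3 was 0.028, -0.028 and 0.070, and its group difference was 0.023 (95% interval -0.26 to 0.31), an interval that leaves out a 2-fold difference either way. For ITGA2, ITGA3, ITGB4 and COL17A1 the order of the group means was spheroids, squamous tissue, ESMG, with the tissues not separated at the threshold. ITGB1 and LAMA3 had the same order of means, with overlapping tissue arrays.

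Levels of markers of other cell types moved with the spheroid results, and their part in these was not tested. Called lower in spheroids than in ESMG were 7 of 10 measured markers of smooth muscle and myoepithelium and 10 of 11 of fibroblasts. The same held for 5 of 6 markers of endothelium and 3 of 7 of leukocytes, and none of these markers was called higher. Their mean log2 levels ran from 7.28 to 7.65 in spheroids against 9.86 to 10.52 in ESMG for smooth muscle and myoepithelium, and from 7.11 to 7.69 against 10.69 to 11.00 for fibroblasts. For endothelium they ran from 6.40 to 6.56 against 8.26 to 8.31, and for leukocytes from 6.86 to 6.93 against 7.80 to 9.07. Against squamous tissue 9 of 10, 10 of 11, 5 of 6 and 3 of 7 genes of these lists were lower in spheroids, and 2 leukocyte genes, AIF1 (log2 1.27) and LCP1 (1.26), were higher. ACTA2, the actin of smooth muscle and myoepithelial cells, averaged 6.73 in spheroids and 12.62 in ESMG, and the collagen COL1A2 7.05 and 11.72. The folds below ESMG were 44.4 for the smooth muscle actin ACTG2, 27.6 for the fibroblast gene DPT, 7.52 and 5.35 for the endothelial CD34 and PECAM1, and 9.81 and 8.32 for the leukocyte CD53 and MPEG1. Not all leukocyte markers fell from ESMG. AIF1 was 0.82 above it on the log2 scale, not called, and LCP1 averaged 9.52 in spheroids and 9.51 in ESMG. No marker was at 0, since RMA values have no true zero.

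Markers of the epithelial compartments moved as well, and their part in the results was not tested either. Of 10 gland markers, 5 were lower in spheroids than in ESMG and none higher, led by the mucin MUC19 (60.4-fold) and the peroxidase LPO (50.6-fold). Against squamous tissue 7 gland markers were higher, led by AGR2 (41.7-fold) and KRT18 (11.5-fold), and LPO was lower. Squamous markers were called lower in spheroids in 3 of 5 against ESMG and in 4 of 5 against squamous tissue. None was called higher. KRT5, a basal keratin of this list, was 0.90 above ESMG and 0.46 above squamous tissue on the log2 scale. KRT15, another basal keratin of the list, went the other way, at 6.55, 8.10 and 6.54 in spheroids. It read 9.29, 10.15 and 10.40 in ESMG and 10.52, 11.00 and 10.63 in squamous tissue. CRNN and A2ML1, proteins of the upper squamous layers, were 16.4-fold and 15.8-fold below ESMG, and 21.9-fold and 22.0-fold below squamous tissue. The mean level of the squamous list ran from 9.25 to 9.54 in spheroids and from 11.19 to 11.90 in ESMG, and that of the gland list from 9.42 to 9.50 and from 10.99 to 11.87. Between ESMG and squamous tissue the largest marker differences in ESMG were AGR2 (66.0-fold higher) and CLCA1 (62.3-fold higher), and SYNPO2 (2.45-fold) and PLN (2.60-fold) of smooth muscle were lower.

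**Figure D3:**
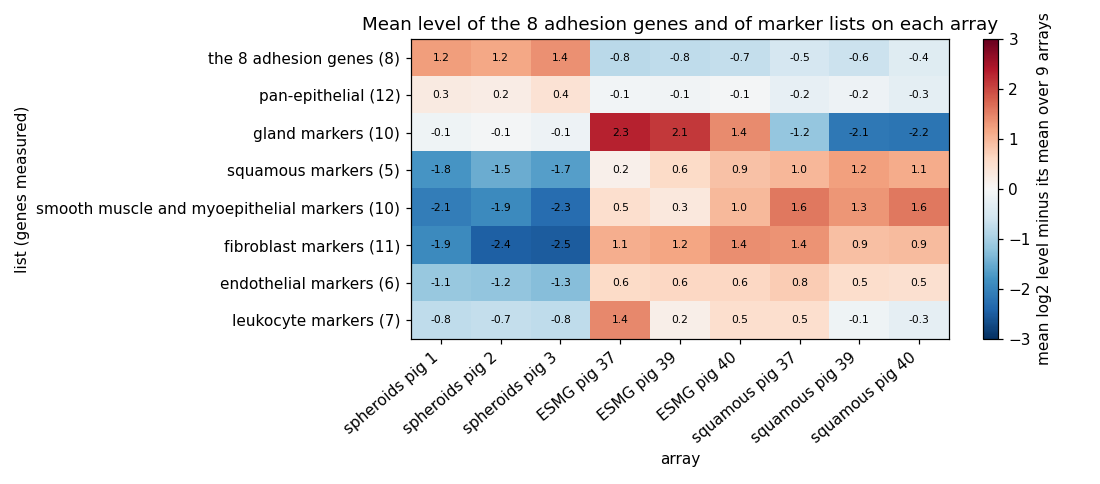
Mean log2 level of the 8 adhesion genes and of marker lists (rows, with the number of genes measured) on each array (columns), minus its mean over the 9 arrays. The 8 adhesion genes and the pan-epithelial list are highest in spheroids, the pan-epithelial list by far less, and stromal and leukocyte lists are lowest there.

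The pan-epithelial list had smaller differences than the 8 adhesion genes. Of 12 measured pan-epithelial genes, 1 was called higher in spheroids than in ESMG, the membrane protease ST14 (log2 1.90, limma adjusted p = 1.78e-06), and 4 were called higher than in squamous tissue, led by ST14 (4.26-fold) and EPCAM (3.12-fold). The list medians were 0.33 and 0.53, and its mean level ran from 10.65 to 10.86 in spheroids, from 10.33 to 10.36 in ESMG and from 10.13 to 10.27 in squamous tissue. EPCAM was also the 1 gene of this list called between the tissues, 3.90-fold higher in ESMG than in squamous tissue (limma adjusted p = 0.00156). With each array set to the same mean over this list, the median of all probe sets was -0.35 from ESMG and -0.56 from squamous tissue. On that scale 767 of all 27558 probe sets were called higher in spheroids than in ESMG and 684 higher than in squamous tissue. Before the scaling these counts were 1811 (6.57%) and 1894 (6.87%). In both comparisons more probe sets were called lower than higher after it, as was already so before it, with 2342 and 2235 lower. Of the 8 genes, 6 were still called higher against ESMG on that scale and 4 against squamous tissue.

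The 4 called against both tissues after this scaling were ITGA3, ITGB4, ITGB6 and LAMB3. ITGA3 had a log2 difference of 2.65 from ESMG and 1.96 from squamous tissue, ITGB4 of 2.20 and 1.75, LAMB3 of 2.23 and 2.11 and ITGB6 of 1.48 and 1.45. ITGA2 (1.50) and COL17A1 (1.34) were called only against ESMG, and were at 0.80 and 0.63 against squamous tissue. Of the other ITGA2 probe sets, 1 also lost that call (0.96) and 1 kept it (1.68). LAMA3 was under 2-fold against both, at 0.95 and 0.67, as did ITGB1, at 0.66 and 0.37. All of these stayed above 0. Within a comparison the scaling lowers every probe set by the same amount. The genes that stayed past 2-fold are therefore those with the largest differences before it, and this is no further support.

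**Figure D4:**
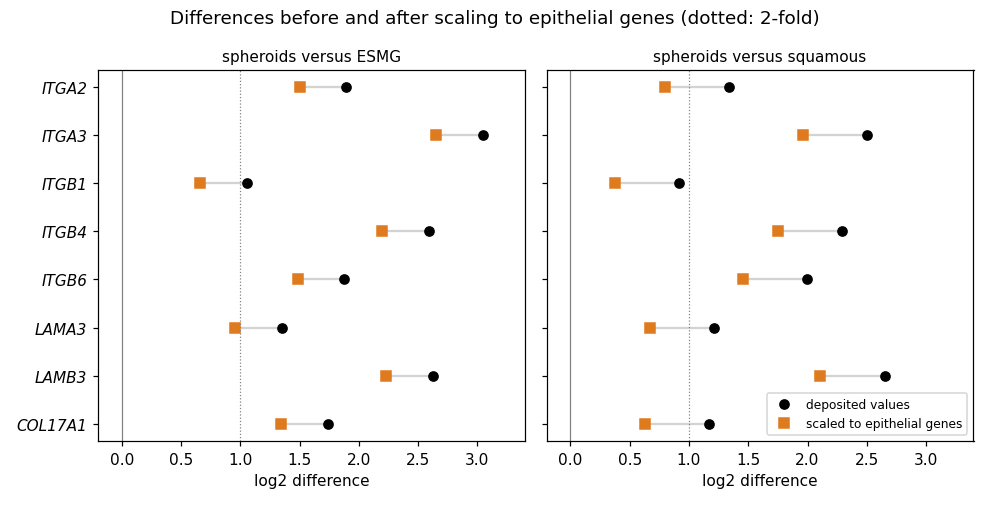
Log2 difference (x axis) of the 8 genes (rows) between spheroids and ESMG and between spheroids and squamous tissue, from the deposited values (black circles) and after setting every array to the same mean over 12 pan-epithelial genes (orange squares); the dotted line marks 2-fold. Within a panel every gene moves down by the same amount. ITGA3, ITGB4, ITGB6 and LAMB3 stay past 2-fold in both panels.

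Other genes of adhesion were called in both directions. Of the other hemidesmosome genes 3 of 9 were measured. CD151, a tetraspanin that binds laminin-binding integrins, was called higher in spheroids, at 10.55, 10.23 and 10.56 against 8.87, 8.80 and 9.03 in ESMG (2.92-fold, limma adjusted p = 2.66e-05), and 2.45-fold against squamous tissue. COL7A1, the collagen of anchoring fibrils, was 0.59 above ESMG and the basal keratin KRT5 0.90 above it on the log2 scale, neither of them called.

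Of 14 other integrin chains, each represented by its brightest probe set, none was called higher in spheroids against either tissue; the second ITGAV probe set is the exception given above. ITGA4, ITGA5, ITGA8 and ITGA11 were called lower than in ESMG, and ITGA4, ITGA5 and ITGA8 also lower than in squamous tissue. ITGA8, a chain of mesenchymal cells, had means of 6.08 ± 0.77 for spheroids and 7.67 ± 0.41 for ESMG (SD, n = 3 each, log2 difference -1.60, limma adjusted p = 0.00543). ITGA4, a leukocyte integrin, averaged 4.59 in spheroids and 6.55 in ESMG, the spheroid level lying under the lower quartile of each spheroid array (5.36 to 5.44), near the floor. ITGA5, the fibronectin receptor chain, was 5.68-fold lower than in squamous tissue. Short of the fold minimum, ITGB5 was 0.98 above ESMG and 0.85 above squamous tissue on the log2 scale. ITGB7 was 0.90 above ESMG, and its second probe set was at -0.51, neither called. The median of this list was -0.47 against ESMG, beside 0.085 over all genes.

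Of 4 other laminin chains none was called higher and 2 were called lower in spheroids against both tissues. LAMA2, the alpha chain of muscle basement membrane, averaged 4.91 in spheroids and 9.95 in ESMG, a 33.0-fold difference. Its spheroid level also lay under the lower quartile of each spheroid array, so the fold rests on values near the floor. LAMA4, a chain of vessel basement membrane, read 6.42, 8.32 and 7.78 in spheroids, against 9.16, 9.38 and 9.41 in ESMG. LAMB1 and LAMC3 were at -0.11 and -0.33 from ESMG on the log2 scale, neither called.

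Of 12 measured basement membrane genes and non-integrin receptors, 1 was called higher and 3 lower in spheroids than in ESMG. SDC1, an epithelial heparan sulfate proteoglycan of the cell surface, was 4.07-fold higher (log2 2.03, limma adjusted p = 0.000193). COL15A1, a collagen next to basement membranes, was 20.2-fold lower. FREM1 was also called lower (4.90 in spheroids, 8.03 in ESMG), with a spheroid level under the lower quartile of each spheroid array, near the floor. Against squamous tissue 2 were higher, SDC1 and SDC4 (3.60-fold), and 4 lower. FRAS1, a basement membrane protein that acts with FREM1, was the 1 gene of this list called between the tissues, 2.77-fold lower in ESMG than in squamous tissue (adjusted p = 0.00471).

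Inside the cell, 5 of 18 genes of focal adhesion linkers and kinases were called higher and 2 lower in spheroids than in ESMG, and 4 higher and 2 lower than in squamous tissue. FERMT1, the epithelial kindlin that binds integrin beta tails, was at 11.03, 10.79 and 10.95 in spheroids and 8.14, 8.45 and 8.01 in ESMG (6.62-fold, limma adjusted p = 6.82e-07). TNS4, an epithelial tensin, was 4.21-fold higher, while TNS1, another tensin, was 7.68-fold lower and LIMS2 2.88-fold lower. Against squamous tissue FERMT1 was 5.21-fold and TNS4 3.25-fold higher, TNS1 12.7-fold and LIMS2 5.48-fold lower. The list median was 0.39 against ESMG and 0.32 against squamous tissue.

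Matrix ligands and the enzymes that process matrix went both ways, with 4 of 14 higher and 7 lower in spheroids than in ESMG, and 3 higher and 6 lower than in squamous tissue. The urokinase PLAU was 14.5-fold and the gelatinase MMP9 5.65-fold higher than in ESMG, and the interstitial collagens COL1A2 and COL3A1 were 25.5-fold and 24.2-fold lower. The collagens also stand in the fibroblast list. Against squamous tissue the folds were 15.8 for PLAU, 5.46 for MMP9, 27.6 for COL1A2 and 26.4 for COL3A1. For the ligands of the ITGB6 integrin, chosen after their values were seen, TGFB1 and TNC had log2 differences of 1.95 and 1.91 from ESMG, and TGFB3 and FN1 of -1.13 and -2.21, all called. Against squamous tissue TGFB1 (1.92), TGFB3 (-1.45) and FN1 (-2.66) were called and TNC was not (0.75, limma adjusted p = 0.194). The matrix glycoprotein THBS1 was called between the tissues, 5.33-fold higher in ESMG (limma adjusted p = 0.0442), with ESMG arrays at 12.34, 11.92 and 12.03 and squamous arrays at 10.77, 7.94 and 10.34.

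**Figure D5:**
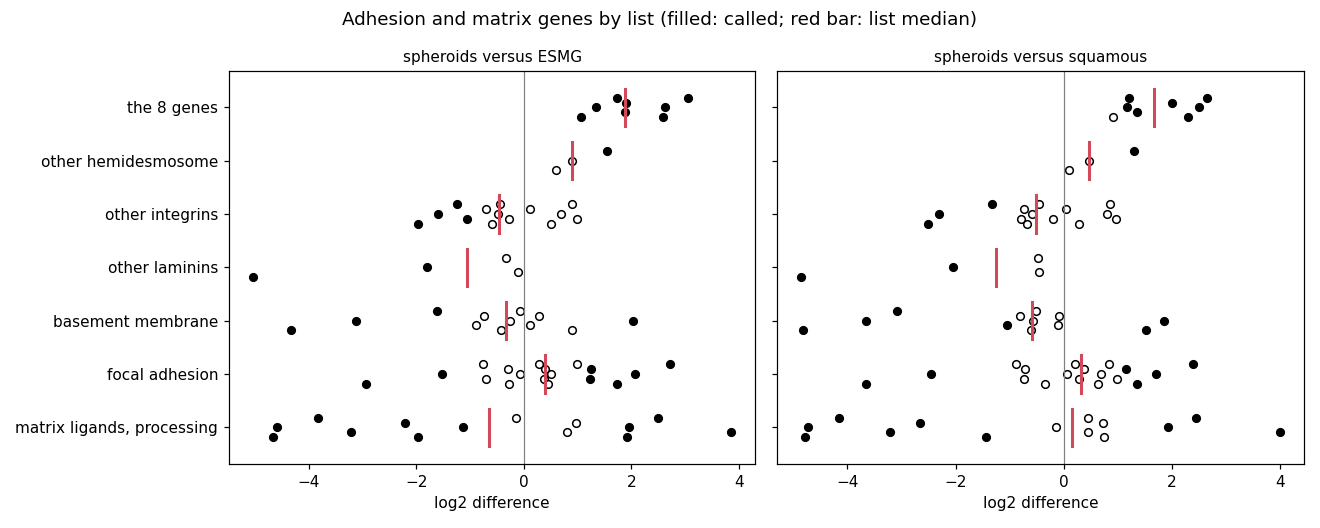
Log2 difference (x axis) of each measured gene of the adhesion and matrix lists (rows) for spheroids versus ESMG and spheroids versus squamous tissue; filled points were called and red bars are list medians. The 8 genes all lie right of 0, the other integrins and laminins, shown by their brightest probe sets, have no called gene there, and matrix genes spread from about -5 to 4.

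Likeness of pattern was measured as the root mean square difference between 2 genes over the 9 arrays, each centred on its own mean. It is a description over 9 arrays that share 3 groups. Nearest to ITGB4 were PBX4 (0.093), MYBL2 (0.11) and PSRC1 (0.14). The nearest to ITGA3 were FHL2 (0.15), ITGB4 itself (0.22) and GJB5 (0.24), the only case in which 1 of the 8 genes was among the closest 3 of another. For LAMB3 they were CLN6 (0.17), ADAM8 (0.18) and ACOT7 (0.19), and ITGB4 came in place 9 at 0.21.

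LAMA3 lay closest to EXO1 (0.11), EI24 (0.11) and SKA2 (0.12), and its nearest among the 8 genes was ITGA2, in place 562 at 0.29. Closest to ITGA2 were ARHGAP11A (0.16), CPOX (0.17) and E2F8 (0.19). UBOX5 (0.12), PTPN12 (0.13) and TMA16 (0.14) were nearest to ITGB1, and CDK1 (0.14), DDX39A (0.18) and RPS6KA1 (0.23) to ITGB6. For COL17A1 they were AP2A1 (0.14), ARHGAP23 (0.14) and MTCL1 (0.15).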

How the data were processed

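The authors deposited log2 values made by RMA in Affymetrix Expression Console, at gene level over its full list, per the labels. The submitters' processing notes also name Transcriptome Analysis Console 3.0, with no role. RMA makes array distributions alike and compresses differences near the floor. No genome build is named in these sources, so coordinates are left out. Of 27558 probe sets, 13157 had 1 gene symbol, 523 several and 13878 none named here. Symbols were updated by gene number through the RefSeq table of Sus scrofa (12841 matched, 7 changed). In counts of genes, each gene is represented by its brightest probe set, by mean of the 9 arrays.

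RNeasy Micro kits were used for spheroids and RNeasy Universal Mini kits for tissues, per the labels' protocols. Groups and pig numbers come from the sample titles, and the design text states biological replicates. A group-means model of all 9 arrays was fitted to the deposited log2 values with lmFit and eBayes (limma 3.58.1, R 4.3.3, statmod 1.5.0, 6 residual degrees of freedom), after testing on simulated data. The 3 comparisons were called at an adjusted p under 0.05 and at least 2-fold. Plots used Python 3.11.15, pandas 2.3.3, numpy 2.4.6 and matplotlib 3.10.9.

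ESMG and squamous tissue of a number are from the same pig. Their deviations from the group means correlated at 0.38, -0.17 and -0.15 in pigs 37, 39 and 40, and at -0.30 to 0.37 between different pigs.

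The genes, the lists (194 symbols, 130 measured) and the tests were chosen with earlier results of these data known. Genes to name beside the 8 were chosen, per list and comparison, as the 2 called genes with the largest rise and the 2 with the largest fall, not all of them printed for every comparison, and the 3 nearest patterns of each gene. Other list genes are named where few were measured or called, after their values were seen. The alternatives were equal medians, quantile and cyclic loess normalization, scaling to pan-epithelial genes, 1 probe set per gene, leaving out the dimmest probe sets, trended and robust eBayes, array weights, only the compared groups, no fold minimum, pig as a random or fixed block, and leaving out each array.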

Additional observations from a re-analysis of the deposited data

How the results depend on the processing

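Over the 20 alternatives, the number of the 8 genes called higher in spheroids than in ESMG ran from 6 to 8, and that against squamous tissue from 4 to 8, being 4 after scaling to pan-epithelial genes and 7 or 8 when any array was left out. No gene was called lower in any of them. Between ESMG and squamous tissue 0 genes were called under all 21 alternatives, which include leaving out the ESMG array of pig 40. With pig as a replicate block, the differences of the 11 probe sets stayed as they were, with limma adjusted p from 0.0986 to 0.975, and the block changed no call. Of 662 single probe set values, 644 kept their direction and side of the threshold, 9 lost a call, 4 gained one and 5 changed sign. Those that changed sign were uncalled differences between the tissues: ITGB6 was -0.029 and LAMB3 -0.12 after pan-epithelial scaling. With single arrays left out, ITGB1 ran from -0.42 to 0.068 and LAMB3 from -0.0082 to 0.071, each crossing 0 without the squamous array of pig 37, and ITGB6 ran from -0.072 to 0.38, crossing it without that of pig 39. The cause was not tested. Over all probe sets, 1811 were higher and 2342 lower in spheroids than in ESMG, but 767 and 4254 after pan-epithelial scaling, which shifts all genes down. Against squamous tissue 1894 and 2235 became 684 and 5366. With 1 probe set per gene the counts were 976 and 1089 from ESMG and 1052 and 983 from squamous tissue, and with no fold minimum 5105 and 4564, and 4954 and 4656. Between the tissues 528 were higher and 76 lower in ESMG; the lower count ran from 26 without the ESMG array of pig 39 to 228 with no fold minimum, and was 214 without the ESMG array of pig 40. The higher count was 324 with 1 probe set per gene. Dim signals such as LAMA2 in spheroids are compressed by RMA.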
